A study of Mus musculus with 6 samples.

Results

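Selenoproteins carry selenocysteine, a selenium analogue of cysteine, which is written in mRNA as UGA, a codon that otherwise ends translation. The ribosome reads through it when a hairpin in the untranslated tail of the mRNA, the SECIS element, brings in a dedicated elongation factor with selenocysteine-tRNA. Most selenoproteins of known function are oxidoreductases that handle peroxides, thioredoxin or disulfides, and several sit in the endoplasmic reticulum (ER). The 10 genes described here (Gpx1, Gpx4, Txnrd1, Txnrd2, Selenow, Selenop, Selenof, Selenok, Selenos and Selenot) were taken by symbol from the 24 mouse genes in which GENCODE M21 marks a selenocysteine codon. All 10 had a row in the table of 53465 genes, and all 10 passed the filter on low counts that left 8200 genes to test.

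The measurements are ribosome footprints, the short pieces of mRNA that a translating ribosome shields from RNase I. The cells were ID8, a tumour line that arose from mouse ovarian surface epithelium, and every culture received cycloheximide (100 µg/mL, 2 minutes) before harvest. There were 3 libraries labelled WT, from cells with a control guide RNA (sgNC), and 3 labelled KO, from cells with a guide against the RNA acetyltransferase gene Nat10 (sgNat10). The series set out to ask whether NAT10 regulates translation in ovarian cancer cells. A gene's count mixes mRNA amount with ribosome density, and no matched mRNA measurement was used here, so these cannot be told apart; nor can fewer cells expressing a gene and less RNA per cell. The labels do not say whether the cells were a clone or a pool, or whether replicates were separate cultures, so a p-value here reflects library-to-library spread that may be technical.

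Libraries held 1687466 to 3126208 counts. Footprint counts on Nat10 were 168, 128 and 292 for WT but also 315, 133 and 445 for KO, so the target gene did not separate the groups (log2 fold change, KO minus WT, -0.07, SE 0.48), and directions below refer to the labels alone. Of 8 epithelial and mesothelial markers 7 had counts, with Epcam at 0 in all 6. They summed to 5854, 6330 and 5905 CPM (counts scaled to a common library size) for WT but 4295, 4827 and 4180 CPM for KO, so these markers moved with the labels. By edgeR, Krt18 (adjusted p = 0.02) and Krt19 (adjusted p = 0.0044) were called lower in KO and Msln (adjusted p = 0.015) higher. Krt8 was lower in KO too but not called (edgeR adjusted p = 0.51). The groups overlapped for Wt1 (mean 170 CPM in WT and in KO) and Upk3b (mean 155 CPM in WT and 214 CPM in KO). Markers of leukocytes, endothelium and red cells summed to at most 14.5, 1.55 and 0.31 CPM. The 4 fibroblast markers summed to 42.8 to 85.4 CPM in WT and 3.10 to 18.4 CPM in KO. In WT most of this came from the collagen gene Col1a1, and Pdgfra, Pdgfrb and Dpt had at most 14 counts in any library. In every library the histogram of gene counts had a local peak far above 1, at 15, 21 and 39 counts in WT and 42, 46 and 60 in KO. A count divided by this modal count is called molecule equivalents below, and a gene under 1 molecule equivalent has very little evidence behind its level.

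The coding sequence around the recoded UGA is shown for each gene, because where that codon lies sets how much of the footprint signal must come from ribosomes that passed it. Each line gives coding sequence from 5′ to 3′ on the GENCODE M21 transcript with the longest coding sequence, with the UGA (written TGA) in capitals and up to 24 bases on each side. Lines that stop early end with the true stop codon. For Selenop only the first UGA is shown.
Gpx1: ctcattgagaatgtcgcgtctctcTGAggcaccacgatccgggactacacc
Gpx4: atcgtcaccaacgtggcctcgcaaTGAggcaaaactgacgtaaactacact
Txnrd1: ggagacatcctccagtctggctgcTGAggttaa
Txnrd2: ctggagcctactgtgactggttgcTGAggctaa
Selenow: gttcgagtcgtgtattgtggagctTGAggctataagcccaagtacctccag
Selenop: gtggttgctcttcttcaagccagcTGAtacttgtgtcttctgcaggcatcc
Selenof: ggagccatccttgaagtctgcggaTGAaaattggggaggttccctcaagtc
Selenok: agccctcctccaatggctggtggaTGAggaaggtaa
Selenos: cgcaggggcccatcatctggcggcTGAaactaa
Selenot: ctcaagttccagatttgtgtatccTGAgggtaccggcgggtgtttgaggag

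On GRCm38 these UGA codons lie at chr9:108339451-108339453 in exon 1 of Gpx1, chr10:80054737-80054739 in exon 3 of Gpx4, chr10:82896037-82896039 in exon 15 of Txnrd1 and chr16:18477772-18477774 in exon 17 of Txnrd2. Those of Selenow and Selenop are at chr7:15920464-15920466 (minus strand, exon 2) and chr15:3274848-3274850 (exon 2). Those of Selenof, Selenok, Selenos and Selenot are at chr3:144590645-144590647 (exon 3), chr14:29973440-29973442 (exon 4), chr7:66088844-66088846 (exon 6) and chr3:58585238-58585240 (exon 2). All are on the plus strand except that of Selenow, all lie in protein-coding exons, and in all 10 genes the annotated codons were exactly the in-frame TGA codons found before the stop.

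The position of the UGA splits the 10 genes. In Selenow, Selenop, Gpx1 and Selenot the first UGA comes after only 13.5%, 15.2%, 22.8% and 24.5% of the coding sequence, so most of the frame lies beyond it. In Gpx4 and Selenof it lies at 50.4% and 56.4%. In Selenok, Selenos, Txnrd2 and Txnrd1 it comes at 95.8% to 99.5%, with 6 to 9 nt of coding sequence left, stop codon included, so nearly all footprints of these 4 genes can come from ribosomes that have not met it. Selenop alone of the 10 has more than 1, with 10 UGA codons, 9 of them in exon 5 from codon 259 to codon 377. Selenow ends its frame with TGA as well, so the same triplet is read as selenocysteine at codon 13 and as stop after codon 88. The base after the first UGA is G in 7 of the 10, A in Selenof and Selenos and T in Selenop. Over all 24 selenoprotein genes it is G in 12, and among 9794 other protein-coding genes that end in TGA the next base is G in 36.1%. The deposited counts are sums over a gene, so footprints before and after a UGA could not be separated.

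**Figure D1:**
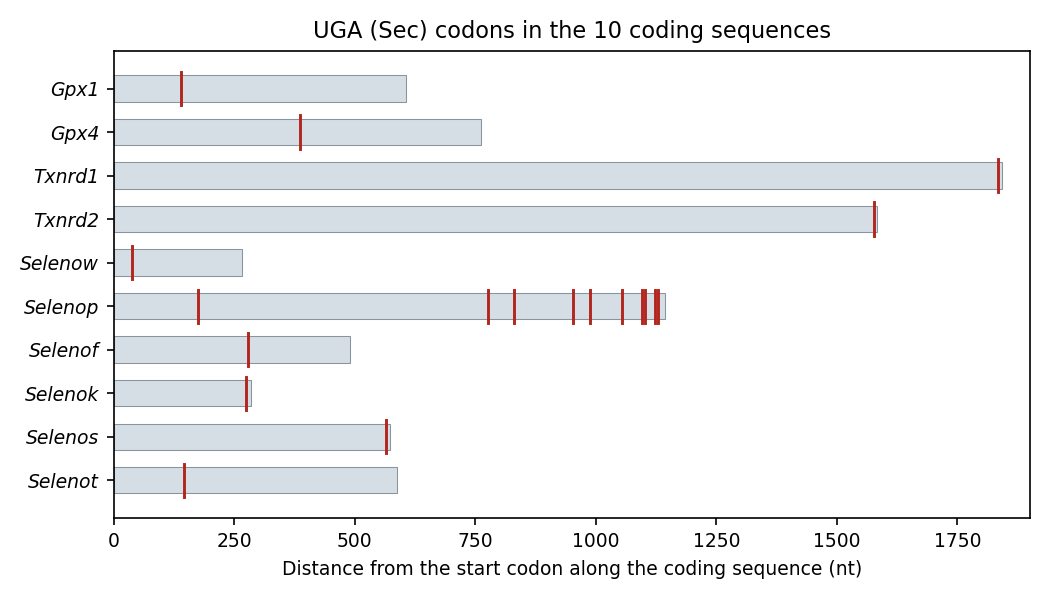
Each bar is the coding sequence of a gene, drawn to scale in nt from the start codon, and each red mark is an in-frame UGA codon. Txnrd1, Txnrd2, Selenok and Selenos carry theirs at the very end, Selenow after 13.5% of its frame, and Selenop has 10.

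Near-identical copies limit the counts of 3 of the 10. Of all windows of 28 nt in the coding sequence, about the length of a footprint, 83.0% in Selenok, 59.3% in Gpx4 and 18.7% in Selenot also occur in transcripts of other annotated genes, and none do in the other 7. These copies are 10 genes, 7 of them for Selenok. Selenok-ps8, a processed pseudogene, shares 50.4% of Selenok's windows, and Gpx4-ps2 shares 58.4% of those of Gpx4. The 9 copies with a row in the count table had 0 counts in all 6 libraries. The labels do not say how reads with several matches were treated, so the levels of Gpx4, Selenok and Selenot are uncertain to that extent. Exons of Selenop overlap those of Ccdc152 on the opposite strand, which had 0 counts in all 6 libraries.

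Between the libraries labelled WT and KO, none of the 10 selenoprotein genes was called by edgeR's quasi-likelihood test at an adjusted p under 0.05, while 33 of 8200 tested genes were (0.402%). Selenot, the gene of the 10 with the smallest p, was the only one with an unadjusted p under 0.05, and the only 1 called by DESeq2, which called 237 of the 7970 genes it gave an adjusted p (2.97%). Its 3 KO values lay below its 3 WT values, and the groups of the other 9 overlapped. Groups did not overlap for 14.9% of all tested genes, and for 7.93% with KO lower, so 1 of 10 is near the background. Log2 fold changes, KO minus WT, were positive for 4 and negative for 6, with a median of -0.21 against -0.02 over all tested genes (4021 positive and 4179 negative). The summed level of the 10 was 820 ± 94.2 CPM (SD, n = 3) in WT against 691 ± 93.4 CPM in KO, and Gpx1 with Txnrd1 made up 42.3% to 62.8% of it in each library.

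**Figure D2:**
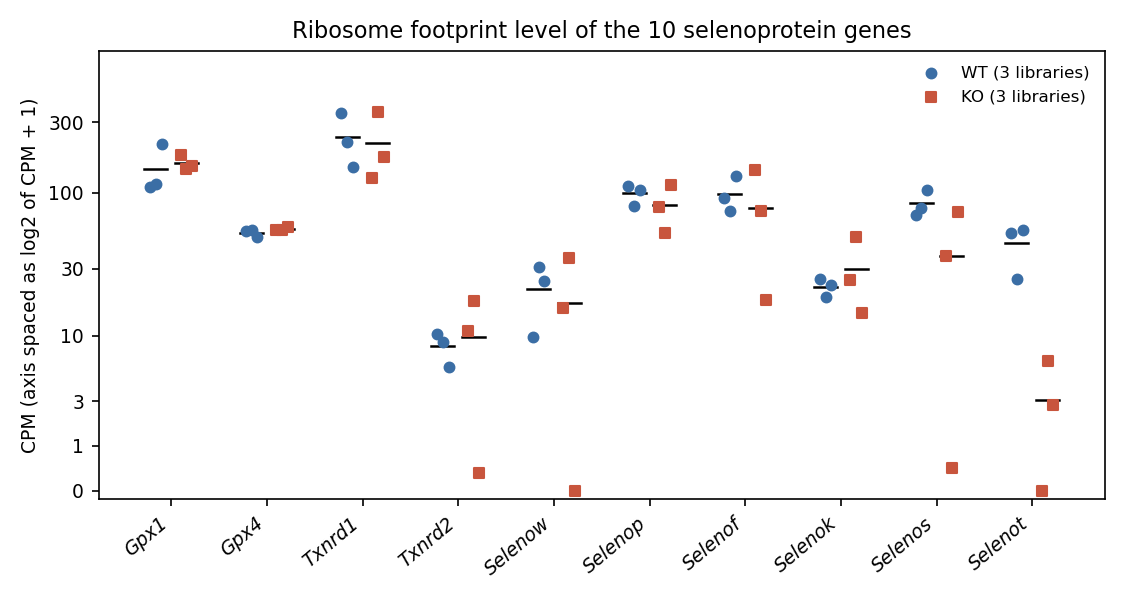
Footprint level in CPM of each selenoprotein gene in each library, on an axis spaced as log2 of CPM + 1, with WT as blue circles, KO as red squares and the group mean as a black line. The groups overlap for 9 of the 10, and for Selenot the KO libraries sit at 0.0 to 6.42 CPM and the WT libraries at 25.5 to 56.1 CPM.

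Neither glutathione peroxidase was called, and the groups overlapped for both. Gpx1 (ENSMUSG00000063856, chr9:108338903-108340343), the cytosolic enzyme that reduces hydrogen peroxide, stood at 109, 115 and 214 CPM in WT and 180, 146 and 153 CPM in KO. WT replicate 3 was the highest of the 6 and WT replicates 1 and 2 the lowest. Its log2 fold change was 0.13 (SE 0.36), with a 95% interval from a fold of 0.639 to a fold of 1.87. Gpx4 (chr10:80047166-80056439), which reduces lipid hydroperoxides within membranes and is the main guard against ferroptosis, gave 54.7, 55.5 and 49.7 CPM in WT and 55.4, 56.1 and 58.0 CPM in KO. These values lay closer together than those of any other of the 10, with a WT mean of 53.3 ± 3.12 CPM and a KO mean of 56.5 ± 1.36 CPM (SD, n = 3). Its fold was nonetheless bounded only between 0.461 and 2.44, since the fit borrows the spread of other genes for a gene of 86 to 187 counts.

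The thioredoxin reductases pass electrons from NADPH to thioredoxin, through a selenocysteine that is the last residue but one. Txnrd1 (chr10:82833951-82897712), the cytosolic enzyme, stood at 349, 222 and 150 CPM in WT and 125, 352 and 175 CPM in KO. Libraries of the same group differed by up to 2.82 times and the groups overlapped throughout. Its log2 fold change was -0.14 (SE 0.40), a fold between 0.501 and 1.63. Txnrd2 (chr16:18426384-18479073), the mitochondrial enzyme, had the lowest level per kb of the 10 in WT, with only 17, 18 and 10 counts in WT libraries but 28, 42 and 1 in KO libraries. At a mean of 0.641 molecule equivalents its difference was not detectable at this depth, with an interval from a fold of 0.0409 to 33.0.

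Selenop and Selenow are a secreted and a cytosolic selenoprotein. Selenop (chr15:3268547-3280508), the plasma protein that carries selenium between tissues, is best known as a product of liver, yet ID8 libraries held 162 to 183 counts of it in WT and 125 to 364 in KO. This was 111, 80.9 and 105 CPM in WT and 80.0, 53.5 and 113 CPM in KO, with a log2 fold change of -0.27 (SE 0.45) and a fold between 0.425 and 1.62. KO replicate 3 was the highest library and KO replicate 2 the lowest. Selenow (chr7:15917208-15922402), a small thioredoxin-like protein, held 16, 62 and 43 counts under the WT label and 41, 83 and 0 under the KO label. The library with no count was KO replicate 3, the largest of the 6 by total counts. Its difference was not detectable (log2 fold change -0.35, SE 1.80), and without KO replicate 3 the value was 0.23.

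The other 4 belong to the ER. Selenof (chr3:144570304-144597680), which partners the folding sensor UGGT, stood at 91.8, 75.0 and 129 CPM in WT and 142, 74.9 and 18.3 CPM in KO, so that its KO libraries alone differed by 7.76 times. Its log2 fold change of -0.33 (SE 0.60) became 0.13 without KO replicate 3. Selenok (chr14:29968308-29975662), a membrane protein that works with the palmitoyltransferase Zdhhc6, had 25.5, 19.0 and 23.1 CPM in WT and 25.0, 49.7 and 14.6 CPM in KO, with a log2 fold change of 0.40 (SE 1.18) that became -0.18 without KO replicate 2. Selenos (chr7:66079649-66089405), which recruits the ATPase VCP (Vcp) to the ER membrane for degradation of misfolded proteins, had 71.1, 78.9 and 105 CPM in WT and 36.7, 0.428 and 74.1 CPM in KO. KO replicates 1 and 2 were below every WT library, but KO replicate 3 was above the lowest of them. The difference was not called (log2 fold change -1.19, SE 0.94, edgeR adjusted p = 1.0), and its lowest value is a single count in KO replicate 2, whose modal count was 46. The log2 fold change was -0.60 without KO replicate 2, -2.19 without KO replicate 3, -2.36 with limma-voom and -2.08 with the replicate block, and was called in none of these.

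Selenot (ENSMUSG00000075700, chr3:58576636-58593133), a thioredoxin-like protein of the ER membrane, was counted 88, 51 and 97 times in the WT libraries but 0, 15 and 9 times in the KO libraries. This was 53.5, 25.5 and 56.1 CPM in WT and 0.0, 6.42 and 2.79 CPM in KO, with every KO library below every WT library. The log2 fold change was -3.85 (SE 1.64, unadjusted p = 0.034), and the edgeR adjusted p over all genes was 0.65. DESeq2 on the same counts gave -3.86 with an adjusted p of 0.044, and was the only one of the 13 other settings with a test of Selenot that called it. The size of the difference rests on few molecules, since all 3 KO counts lay below the modal counts of their libraries (0.0, 0.326 and 0.150 molecule equivalents) and the WT libraries held 5.87, 2.43 and 2.49. Leaving out each library in turn gave log2 fold changes from -4.91 to -3.28, with unadjusted p from 0.014 to 0.13. KO libraries held 48572 to 60506 molecule equivalents in all and WT libraries 46442 to 112498, and the fibroblast marker sum, Krt8, Krt18 and Krt19 were lower in KO too. Their part in the Selenot difference was not tested.

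**Figure D3:**
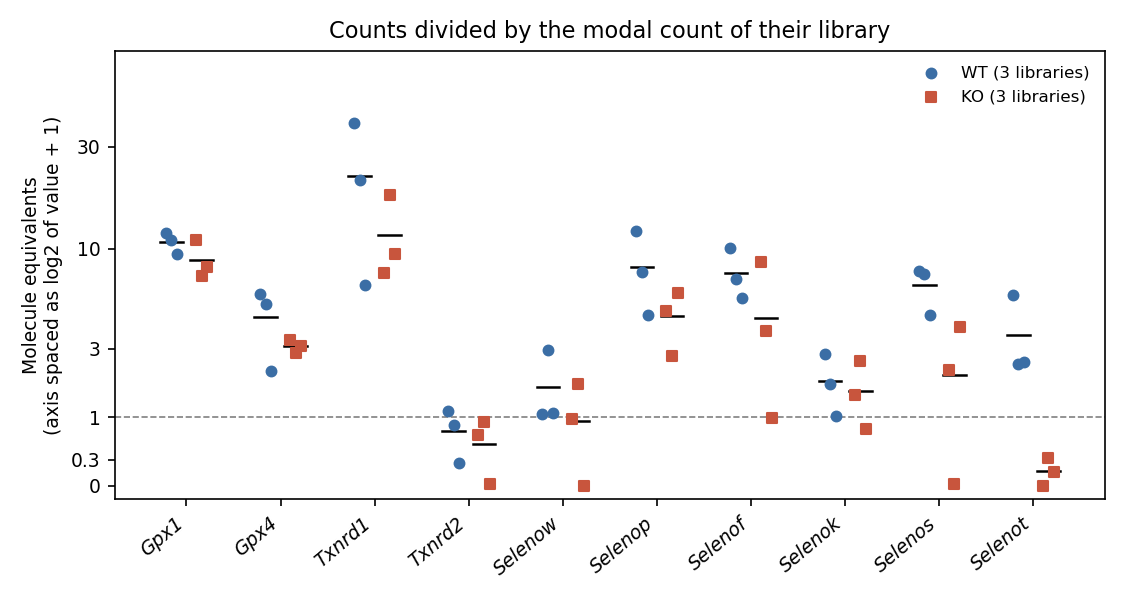
Counts of each selenoprotein gene divided by the modal count of their library (molecule equivalents), on an axis spaced as log2 of value + 1, with WT as blue circles, KO as red squares, group means as black lines and 1 molecule equivalent as a dashed line. Selenot lies above the line in the 3 WT libraries and below it in the 3 KO libraries, and Txnrd2 averages 0.641 over the 6.

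Per kb of coding sequence the order of the 10 in WT began with Gpx1 at 241 ± 97.3 CPM per kb and Selenof at 202 ± 56.5, followed by Selenos at 148 ± 30.6 and Txnrd1 at 131 ± 54.6 (SD, n = 3). Selenop, Selenow, Selenok, Selenot and Gpx4 came next and close together, from 86.6 ± 13.9 down to 70.0 ± 4.10 CPM per kb. Each neighbour in this order overlapped the next within 1 SD, except that Txnrd2, at 5.28 ± 1.48 CPM per kb, was apart from Gpx4. In KO Gpx1 again came first, at 263 ± 29.9 CPM per kb, and Selenot last, at 5.22 ± 5.48, beside Txnrd2 at 6.15 ± 5.62. Within KO every neighbour overlapped the next. Short Selenow and Selenok, with 267 and 285 nt of coding sequence, thus had levels per length like that of Selenop, whose coding sequence is 1143 nt. The level of Gpx4 depends on the transcript, being 89.7 ± 5.26 CPM per kb in WT on its 594 nt coding sequence, where the UGA is codon 73, in place of the 762 nt used above, where it is codon 129. The order in WT depends on the transcript too. Selenof stood at 269 ± 75.4 CPM per kb on its 366 nt coding sequence, above Gpx1. Txnrd1 stood at 160 ± 67.1 CPM per kb on its 1500 nt coding sequence, above Selenos.

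Set out by the position of the UGA, the early group had log2 fold changes of 0.13 (Gpx1), -0.27 (Selenop), -0.35 (Selenow) and -3.85 (Selenot). The group with a late UGA had 0.40 (Selenok), 0.22 (Txnrd2), -0.14 (Txnrd1) and -1.19 (Selenos). The difference between the groups was not tested.

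The other 14 selenoprotein genes add 7 that could be tested, and none was called by edgeR or DESeq2 or had an unadjusted edgeR p under 0.05. Selenoi, the ethanolamine phosphotransferase of phospholipid synthesis, had a WT mean of 158 ± 22.4 CPM and a KO mean of 114 ± 28.7 CPM (SD, n = 3). Its 3 KO libraries lay just below its 3 WT libraries (141 against 145 CPM at the nearest), with a log2 fold change of -0.48 (SE 0.36). Selenom, an ER protein, had the opposite sign, with 24.3, 49.5 and 24.9 CPM in WT and 64.4, 99.3 and 28.9 CPM in KO (0.96, SE 0.70). Selenoh, Selenon, Selenoo, Msrb1 and Sephs2 averaged 1.17 to 1.90 molecule equivalents and had standard errors of 1.32 to 2.09, so differences were not detectable for them. Txnrd3, a reductase known from testis, did not pass the count filter, at 47, 4 and 6 counts for WT against 1, 0 and 1 for KO. Gpx3, the plasma peroxidase, had 1 count in all, and 5 had none in any library, namely Gpx2 and Selenov and the 3 deiodinases of thyroid hormone, Dio1, Dio2 and Dio3. Gpx1, Selenow, Selenoh and Msrb1, which are known to be given up first when selenium is short, had a median log2 fold change of -0.28, with 1 positive, 3 negative and none called.

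The genes listed for the selenocysteine machinery were for the most part measured at very low levels. The list is wider than the genes that make selenocysteine-tRNA or decode UGA, and also holds Scly and Lrp8. Of 15 listed, 14 were tested, none was called by edgeR or DESeq2 or had an unadjusted edgeR p under 0.05, and 4 were positive and 10 negative (median -0.37). Secisbp2, which binds the SECIS hairpin, was counted 7, 0 and 16 times under the WT label but 80, 16 and 159 times under the KO label. KO replicate 2 was no higher than WT replicate 3, and the log2 fold change was 2.68 with an SE of 2.00. Eefsec, the elongation factor that delivers selenocysteine-tRNA, had 52, 66 and 24 counts in WT and 121, 108 and 1 in KO. Trnau1ap, which binds selenocysteine-tRNA, had 12.8, 47.5 and 19.1 CPM in WT and 0.39, 0.428 and 11.2 CPM in KO, with no overlap but only 1, 1 and 36 counts in KO (log2 fold change -2.70, SE 2.08). Without KO replicate 3 its value was -5.82 and without WT replicate 2 it was -1.97, again not called. Sars, the seryl-tRNA synthetase that first charges this tRNA with serine, was well measured and close between groups, at 525 ± 72.5 CPM in WT against 476 ± 83.9 CPM in KO, with a fold between 0.653 and 1.26. Ncl, nucleolin, an abundant RNA-binding protein reported to bind SECIS elements, stood at 6819 ± 2046 CPM in WT against 5932 ± 609 CPM in KO, and its interval ran from a fold of 0.670 to 1.13.

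**Figure D4:**
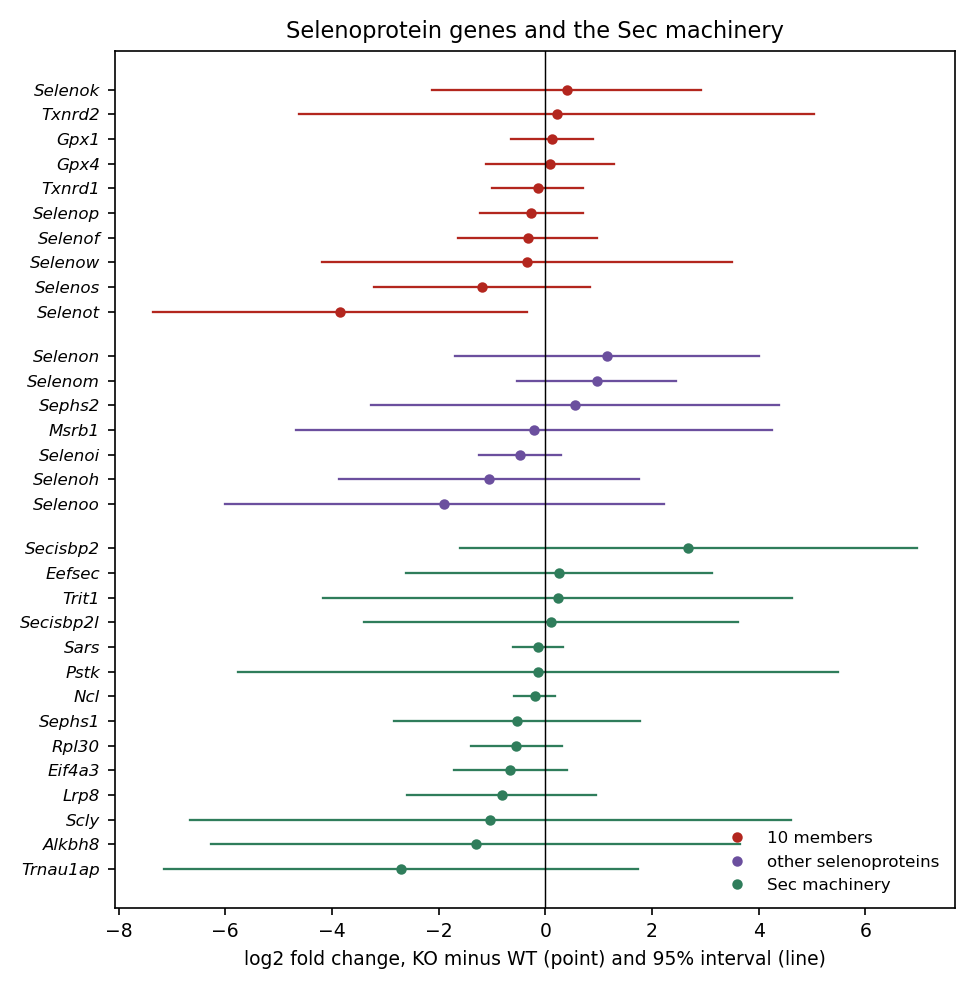
Log2 fold change, KO minus WT, of the tested selenoprotein genes and genes of the selenocysteine machinery, with points for the edgeR estimate and lines for its 95% interval. Every interval includes 0 except that of Selenot, which runs from -7.36 to -0.35 without adjustment for the number of genes tested, and the narrowest belong to Ncl, Sars, Selenoi and Gpx1.

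Among the partners of these enzymes, footprints on the thioredoxin gene were lower in KO. Txn1, the small protein that Txnrd1 reduces, had 823, 696 and 927 CPM in WT and 208, 232 and 252 CPM in KO, a log2 fold change of -1.82 (SE 0.22, edgeR adjusted p = 0.00098). It was called in all 14 other settings, and its KO libraries held 11.8 to 13.5 molecule equivalents. The keratin and Msln differences given above run along the same labels, and their part in the Txn1 difference was not tested. Whether genes lying near Txn1, or near Vcp (below), on the chromosome were lower in KO too was not examined here. Txn1 was the only edgeR call among 17 tested thioredoxin and glutathione genes, where 0.402% of all tested genes were called. Of the 17, 6 were positive and 11 negative (median -0.25), against 4021 and 4179 of all tested genes (median -0.02). Txnip, which binds and inhibits thioredoxin, stood at 138, 186 and 109 CPM in WT and 31.2, 20.6 and 116 CPM in KO (-1.37, SE 0.58, adjusted p = 0.66), and without KO replicate 3 its value was -2.48. Gsr, the reductase that restores glutathione and is no selenoprotein in mammals, stood at -0.77 (SE 0.58) and Prdx6 at -1.19 (SE 0.66), neither called. Whether Txn1 differed from Txnrd1 in its change was not tested; their intervals ran from -2.29 to -1.36 and from -1.0 to 0.71.

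Targets of NRF2, the transcription factor that also drives Txnrd1, gave 11 negative values among 12 tested genes, Txnrd1 included, with a median of -0.53 and none called. The 3 whose groups did not overlap, all with KO lower (7.93% of all tested genes), were Tkt and G6pdx, enzymes of the pentose phosphate pathway that supplies NADPH, and the malic enzyme Me1. Tkt stood at 537 ± 25.9 CPM in WT against 321 ± 52.1 CPM in KO (log2 fold change -0.74, SE 0.22, adjusted p = 0.33) and G6pdx at 378 ± 45.8 and 214 ± 15.6 CPM (-0.82, SE 0.25, adjusted p = 0.34). DESeq2, with its larger share of calls (2.97% of genes), called both. Of the ER partners, Vcp stood at 483 ± 95.9 CPM in WT against 260 ± 83.0 CPM in KO (-0.90, SE 0.27, adjusted p = 0.35) and was called by DESeq2, by limma-voom (1.13% of genes called) and on molecule equivalents (11.4% called). Of 10 tested ER partners, 4 were positive and 6 negative. Acsl4, the acyl-CoA synthetase that makes membranes prone to the lipid peroxidation Gpx4 repairs, stood at 903 ± 108 CPM in WT against 606 ± 52.8 CPM in KO (-0.58, SE 0.19, adjusted p = 0.43). It was called by DESeq2 alone, and of 8 tested genes of lipid peroxidation and ferroptosis 2 were positive and 6 negative, with none called in the edgeR test. Gpx8, a relative of the peroxidases with cysteine in place of selenocysteine, had 18.2, 18.0 and 48.6 CPM in WT and 36.7, 62.5 and 64.8 CPM in KO (0.95, SE 0.78), and it was not called. The partner lists were chosen with earlier results of these data known, so their counts of signs and calls are a description only.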

How the data were processed

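Per the labels' protocols, reads were trimmed with Cutadapt, those of 25 to 34 nt were kept, Bowtie removed rRNA and tRNA reads, and HISAT2 (genome, GRCm38) and Bowtie (transcriptome) aligned the rest. featureCounts and DESeq2 are named in the submitters' processing notes, without versions; annotation, strand setting and handling of duplicates and multiple matches are unstated in the labels, so reads of overlapping antisense genes cannot be told apart. The authors deposited whole-number counts per Ensembl gene, not normalized, 1 column per library; 53360 of 53465 identifiers matched GENCODE M21, which gave symbols, coordinates and coding sequences.

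The counts were tested with edgeR's quasi-likelihood test (edgeR 4.0.16, R 4.3.3; TMM factors, filterByExpr by group, Benjamini-Hochberg over 8200 genes, calls at adjusted p under 0.05), checked on simulated data. CPM uses TMM-adjusted library sizes. Intervals are 95% and use the fit's standard error, taken as the log2 fold change over the square root of F. The modal count is the highest local peak between 8 and 150 of the histogram of gene counts (Gaussian bandwidth 3). A molecule equivalent is a working unit; without molecular identifiers, repeated copies of a fragment cannot be counted out. Windows of 28 nt were matched exactly, on the same strand, to all GENCODE M21 transcripts. limma 3.58.1 (voom) and DESeq2 1.42.0 served as other tests.

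All 10 genes, Nat10, any other selenoprotein or selenocysteine machinery gene with counts, and up to 4 genes of each partner list with the smallest p could be named, with annotated copies of the 10 genes and the 3 genes most like Txnrd1 and Selenot over the libraries. The members and lists were chosen with earlier results of these data known. Of the listed relatives with cysteine in place of selenocysteine, 2 were tested, both positive and neither called. Alternatives were other scalings, count filters and tests, a replicate block, molecule equivalents and leaving out each library.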

Additional observations from a re-analysis of the deposited data

How the results depend on the processing

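With 3 libraries a group and few molecules behind most of the 10 genes, only large differences could be detected: 4 of the 10 averaged under 3 molecule equivalents. No selenoprotein gene of the 10 was called in any of the 14 other settings except Selenot by DESeq2, giving 1 called gene there; the filter of 50 counts in 3 libraries tested 7 of the 10, and molecule equivalents tested only Txnrd1. Over all genes the 33 calls became 237 with DESeq2, 93 with limma-voom, 91 with no count filter and 110 on molecule equivalents (968 genes tested), and ran from 6 to 29 without single libraries (6 when WT replicate 2 or WT replicate 3 was left out, and 15, 20 and 18 when KO replicates 1, 2 and 3 were). With library totals 43 were called, 27 of them higher, against 15 of 33 with TMM factors; this scaling moved the median of all tested genes from -0.02 to 0.09. With limma-voom that median was -0.13. The median of the 10 was -0.55 with limma-voom and ran from -0.44 to 0.10 without single libraries. Among the 128 values of the 10 genes under other settings, 10 changed sign, none of them called; the cause was not tested.

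Deviations of same-numbered libraries from their group means correlated at -0.017, -0.003 and -0.007, which gave no sign of pairing by replicate number. With few molecules behind many genes, paired libraries could also give values near these, and the labels do not say, so pairing was not settled. With the replicate block 38 genes were called and none of the 10, and signs changed for Txnrd2 (-0.69), Secisbp2l (-0.30), Eefsec (-0.80), Trit1 (-0.11) and Msrb3 (-0.34). With limma-voom signs changed for Txnrd2 (-1.03), Secisbp2l (-1.68), Eefsec (-1.82), Msrb3 (-0.85) and Nat10 (0.02), and with library totals for Nat10 (0.03). Without single libraries log2 fold changes spanned 0 for Gpx1 (-0.04 to 0.51), Txnrd1 (-0.67 to 0.22), Txnrd2 (-0.58 to 0.78), Selenow (-1.45 to 0.23), Selenof (-1.08 to 0.13), Selenok (-0.18 to 0.72) and Nat10 (-0.35 to 0.35), and outside the 10 for Msrb1 (-2.09 to 1.39), Selenoh (-1.43 to 0.01), Sephs2 (-0.02 to 2.49), Secisbp2l (-1.53 to 0.69), Eefsec (-0.17 to 0.83), Pstk (-4.23 to 0.44), Sephs1 (-1.38 to 0.50), Scly (-5.81 to 0.82), Trit1 (-0.35 to 0.87), Ncl (-0.38 to 0.06), Msrb3 (-0.87 to 1.26) and Slc3a2 (-0.41 to 0.02). Selenop, Selenos, Selenot and Gpx4 kept their sign in every setting that tested them.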

Other observations

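The level of Txnrd1 varied between libraries without regard to the labels, from 125 to 352 CPM. The 3 protein-coding genes whose log2 CPM followed it most closely over the 6 libraries, among 8086 ranked, were Limd1 (r = 0.990), Bnip1 (r = 0.985) and Psma7 (r = 0.981). Psma7, a proteasome subunit, had 239, 161 and 130 CPM in WT and 87.8, 236 and 124 CPM in KO. For Selenot they were Dph2 (r = 0.992), Pmpca (r = 0.986) and Cs (r = 0.983). Cs, the citrate synthase, had 727, 638 and 719 CPM in WT and 461, 552 and 559 CPM in KO. With 6 libraries that share depth and label, and so many genes ranked, values of r this high are a description only.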
